A study of Mus musculus with 2 samples.

Results

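Trp53, the mouse gene for the transcription factor p53, and 9 of its classical target genes were examined in single cells of a mouse pancreatic cancer line. The 10 members were named from knowledge of the pathway (Trp53, Cdkn1a, Mdm2, Ccng1, Bax, Phlda3, Zmat3, Bbc3, Eda2r and Trp53inp1), with earlier results of these data known. Each was found by its symbol among the 33696 features of the deposited matrix. The cells were of KPCY 6419c5, a pancreatic ductal adenocarcinoma line, and all carried the lineage-tracing system BASELINE together with Cas12a-ABE, an adenine base editor built on Cas12a. Single cells had been sorted and grown into clones after transfection, and clones 76 and 84 were mixed 1:1 at 19 days of editing and run as 1 droplet library. Each clone descends from 1 sorted cell, no unedited or editor-free control was analysed here, and a second pool of 5 clones was not analysed here.

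KPCY tumours arise in mice whose pancreas carries an altered Trp53 allele, a Cre recombinase and a yellow fluorescent reporter. The labels do not say which Trp53 allele this line keeps, and a count per gene does not tell a normal from an altered transcript. p53 is kept low by the ubiquitin ligase Mdm2, is stabilised after DNA damage and other stress, and then binds paired decamers near its targets to raise their transcription. Targets such as Cdkn1a stop the cell cycle, others such as Bax and Bbc3 promote cell death, and Mdm2 itself is a target and closes a feedback loop. In pancreatic ductal cancer the Trp53 gene is among the most often altered tumour suppressors.

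Of 22178 barcodes, with 500 to 23576 unique molecular identifiers (UMIs, 1 per captured RNA molecule) each, 21361 passed a filter of 2000 or more UMIs, 1000 or more detected genes and no more than 15% UMIs from mitochondrial genes. Groups of cells were set by genes that are not members. A cells had at least 2 UMIs of Pde10a, Plcb1, Galnt18, Arhgap15 and Ceacam1 together, and at least 3 times those of the other set. B cells met the same rule for S100a7a, Rgs20, Hs6st2, Ccbe1, Ctse and Mal. There were 7816 A cells (36.6%, median 4700 UMIs), 8936 B cells (41.8%, median 5440 UMIs) and 4609 cells in neither group. The groups are defined by expression and were not matched to the clone labels. They come from 1 library with no replicate, so no test between them was possible. Intervals are at 95%, cover counting error only, and do not include the spread between cultures.

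The labelled cell type was checked with 7 epithelial genes, which summed to 2739 CPM (the UMIs of a gene or list over all UMIs of the group, on the scale of counts per 1000000) in A cells and 7583 in B cells. The keratin genes Krt8, Krt18 and Krt19 were detected in both groups, whereas Krt7 was at 53.4 CPM in A and 1358 in B, and Epcam at 31.8 in A and 3.16 in B. The 6 fibroblast genes summed to 2.11 CPM in A and 0.853 in B, with Col1a2, Dcn and Lum at 0 in both. The 5 immune genes summed to 1.52 and 0.682 CPM, the 3 endothelial genes to 0.944 and 0.796, and the 3 acinar genes to 13.7 and 4.38.

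Promoter sequence is shown for the members whose levels differed most, Cdkn1a and Phlda3. It is also shown for Ccng1, which shares with Cdkn1a the closest match to a full p53 site among the member windows. RefSeq windows of 250 bases directly upstream of an annotated transcription start were matched by symbol for 8 of the 10 members, in 11 windows, on build GRCm38.p6. Windows for Zmat3 and Trp53inp1 were not matched. Each was searched for the p53 decamer consensus, which reads 3 purines, C, 2 letters that are each A or T, G and 3 pyrimidines. It is its own reverse complement, so both strands are covered by 1 search. Capitals mark decamers, and in Cdkn1a (first start) and Ccng1 also adjacent decamer pairs that match at 19 or more of 20 positions. The Cdkn1a windows lie at chr17:29090729-29090978 (first start) and chr17:29093519-29093768 (second start), both on the plus strand. The Ccng1 window lies at chr11:40755287-40755536 on the minus strand, and the Phlda3 window at chr1:135765835-135766084 on the plus strand.
Cdkn1a, first start: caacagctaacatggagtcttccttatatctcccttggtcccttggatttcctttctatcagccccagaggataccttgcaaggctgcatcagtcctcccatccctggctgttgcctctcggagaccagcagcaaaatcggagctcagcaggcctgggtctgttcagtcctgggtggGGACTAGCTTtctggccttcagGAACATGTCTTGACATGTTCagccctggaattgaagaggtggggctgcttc
Cdkn1a, second start: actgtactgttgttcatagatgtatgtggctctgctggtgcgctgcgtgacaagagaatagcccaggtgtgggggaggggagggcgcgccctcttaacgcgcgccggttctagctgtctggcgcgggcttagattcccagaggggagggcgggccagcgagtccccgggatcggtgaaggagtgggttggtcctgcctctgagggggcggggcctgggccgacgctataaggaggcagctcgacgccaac
Ccng1: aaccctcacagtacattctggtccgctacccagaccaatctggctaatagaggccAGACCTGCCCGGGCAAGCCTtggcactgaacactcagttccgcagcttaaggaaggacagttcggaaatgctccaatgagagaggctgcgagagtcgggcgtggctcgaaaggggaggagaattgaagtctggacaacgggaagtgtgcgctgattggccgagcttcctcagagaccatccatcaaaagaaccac
Phlda3: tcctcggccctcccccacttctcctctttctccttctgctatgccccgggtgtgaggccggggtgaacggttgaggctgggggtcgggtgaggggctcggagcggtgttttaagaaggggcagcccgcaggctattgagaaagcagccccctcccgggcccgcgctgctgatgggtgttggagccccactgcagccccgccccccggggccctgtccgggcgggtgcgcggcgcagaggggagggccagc
The pair in Cdkn1a, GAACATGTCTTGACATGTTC, begins 51 bases before the first start, and the pair in Ccng1, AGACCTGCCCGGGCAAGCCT, begins 195 bases before the start. The limit of 19 positions was chosen after the Cdkn1a window was seen. Such a pair was found in 25 of all 32851 RefSeq windows, or 0.0761%.

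At least 1 decamer was present in 5 of the 11 member windows (45.5%), against 2341 of 32851 windows (7.13%). Besides those in Cdkn1a and Ccng1 above, there was GGACTTGCCC beginning 75 bases before the start of Trp53, GAACTTGCCT 186 bases before that of Mdm2 and AGGCAAGCTT 201 bases before that of Bax. No decamer was found in these 250 bases for Phlda3, for the second start of Cdkn1a, for the 3 windows of Bbc3 or for Eda2r. The matches describe letters in these windows and are not binding sites measured here. Sequence outside these 250 bases, where p53 sites can also lie, was not searched.

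Trp53 itself was at a similar level in both groups. It had 15526 UMIs in A cells, or 386 CPM (379.5 to 391.6), and 15757 UMIs in B cells, or 299 CPM (293.9 to 303.3). The level in B was 0.775 times that in A, a log2 ratio of B over A of -0.37 (-0.40 to -0.34). The median over the 8800 genes that reached 10 CPM in A or B was -0.17, with 5th and 95th percentiles of -1.47 and 1.39. With every cell reduced to 3000 UMIs, a Trp53 UMI was expected in 68.0% of A cells and 58.2% of B cells.

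Cdkn1a, which encodes the cyclin-dependent kinase inhibitor p21 and is the best known arrest target of p53, differed most among the members. It had 108 UMIs in A cells, or 2.68 CPM (2.20 to 3.24), and 1285 UMIs in B cells, or 24.4 CPM (23.0 to 25.7). The intervals do not overlap, and the level in B was 9.08 times that in A (7.46 to 11.2), a log2 ratio of 3.18 (2.90 to 3.48). Phlda3, whose product binds membrane lipids and restrains the survival kinase Akt, came next. It had 519 UMIs in A, or 12.9 CPM (11.8 to 14.1), and 3127 UMIs in B, or 59.3 CPM (57.2 to 61.4). Its level in B was 4.60 times that in A (4.19 to 5.06), a log2 ratio of 2.20 (2.07 to 2.34).

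A difference is counted here where the ratio of CPM is at least 2 and the gene has at least 10 CPM in A or B. Of the 10 members, 7 had at least 10 CPM. By that rule 2 of these 7, Cdkn1a and Phlda3, were higher in B, and 7.26% of the 8800 genes were. No member was higher in A, where 10.3% of the genes were. Cdkn1a met the minimum of 10 CPM only through B cells. At or above the ratio of Cdkn1a were 151 of the 8800 genes, and 262 were at or above that of Phlda3. The 2 genes are therefore in the upper part of a broad difference between the groups, in which 1547 genes (17.6%) differed in either direction.

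**Figure D1:**
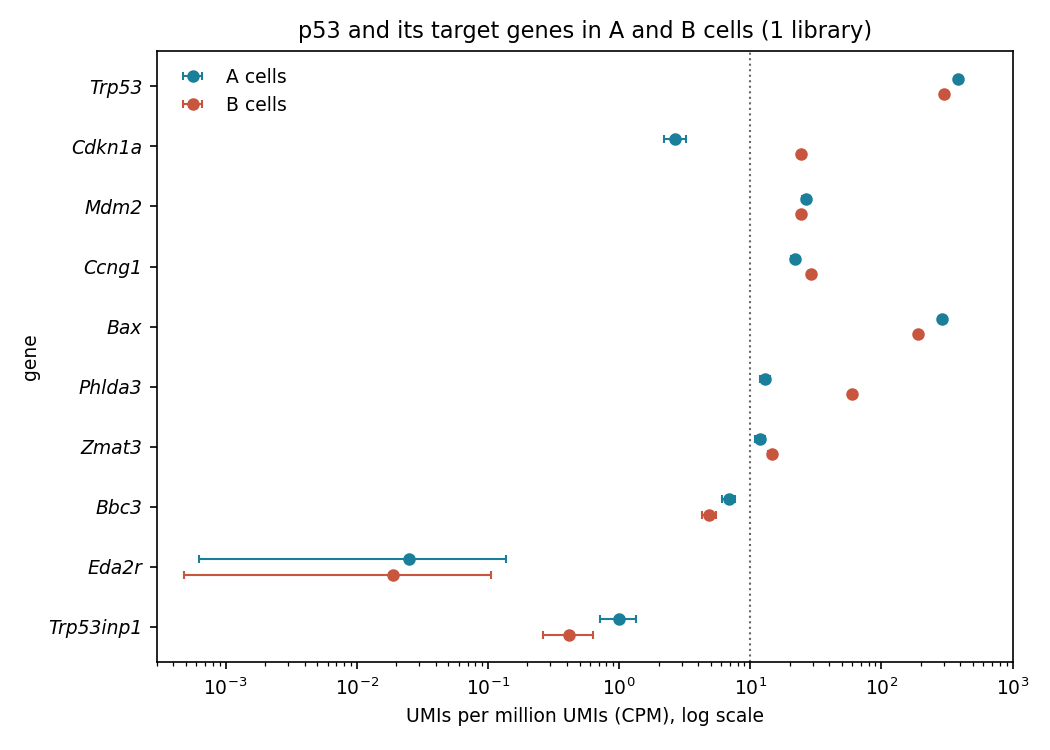
Levels of the 10 members in A cells (blue) and B cells (red) of 1 library, in CPM on a log axis, with exact Poisson intervals at 95% and a dotted line at 10 CPM. Cdkn1a (2.68 and 24.4 CPM) and Phlda3 (12.9 and 59.3) are set apart between the groups, the other members with at least 10 CPM lie close together, and Eda2r rests on 1 UMI in each group.

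Mdm2, Ccng1 and Zmat3 were within 2-fold between the groups. Mdm2, the ligase that degrades p53, was at 26.4 CPM in A (1065 UMIs) and 24.5 CPM in B (1291 UMIs), a log2 ratio of -0.11 whose interval (-0.23 to 0.01) holds 0. Ccng1, which encodes cyclin G1 and acts on Mdm2 through a phosphatase, was at 21.9 CPM in A and 29.1 in B, with a log2 ratio of 0.41 (0.29 to 0.53). The level of Ccng1, which like Cdkn1a carries a near-full decamer pair in its window, was 1.33 times as high in B, against 9.08 times for Cdkn1a. Whether these pairs bear on the ratios was not tested. Zmat3, an RNA-binding zinc finger protein that alters splicing downstream of p53, was at 11.9 CPM in A and 14.7 in B, a log2 ratio of 0.30 (0.13 to 0.46). Trp53inp1, a nuclear protein that promotes p53-dependent cell death and autophagy, was scarce, with 40 UMIs in A (0.993 CPM) and 22 in B (0.417 CPM). Its log2 ratio was -1.25 (-2.07 to -0.47), or 2.38 times as high in A, at a level below the 10 CPM needed to be counted.

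Bax, Bbc3 and Eda2r act in cell death. Bax, which forms pores in the mitochondrial outer membrane, was at 291 CPM in A (285.3 to 295.9) and 189 CPM in B (185.6 to 193.1). Its level in A was 1.54 times that in B (1.49 to 1.58), short of 2-fold. Bbc3, which encodes the BH3-only protein Puma, had 275 UMIs in A (6.83 CPM) and 256 in B (4.85 CPM), a log2 ratio of -0.49 (-0.74 to -0.24). Eda2r, a death-domain receptor of the tumour necrosis factor family, had 1 UMI in A, 1 in B and 0 in the cells of neither group, so no ratio is given. A count of 1 in A allows at most 0.138 CPM and in B at most 0.106 CPM.

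Bax and Bbc3 both lie on chromosome 7, by the GENCODE M21 annotation, and the 587 genes of that chromosome with at least 10 CPM had a median log2 ratio of -0.61. The ratio of Bax, -0.62, is close to that median. The medians for chromosome 11, with Trp53 and Ccng1, and chromosome 10, with Mdm2, were -0.07 and -0.04. Cdkn1a lies on chromosome 17, whose median was -0.43, in the direction opposite to its own ratio, and Phlda3 on chromosome 1, whose median was -0.02. The part of chromosome-wide shifts in the members' ratios was not tested.

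Shares of cells with a UMI were read at equal depth. At 3000 UMIs per cell, which left 7406 A cells and 8827 B cells after leaving out 410 and 109 shallower ones, a Cdkn1a UMI was expected in 0.766% of A cells (0.580 to 0.992%) and 6.57% of B cells (6.06 to 7.11%). Without that reduction in depth the shares were 1.23% and 11.6%. Phlda3 was expected in 3.58% of A cells and 16.1% of B cells, and was seen in 6.23% and 28.6% at full depth. The other members with at least 10 CPM differed less in the ratio of their shares, though Bax had the widest gap in percentage points. Their shares in A and B were 68.0 and 58.2% for Trp53, 7.74 and 7.18% for Mdm2, and 6.33 and 8.45% for Ccng1. They were 57.3 and 42.3% for Bax, and 3.45 and 4.35% for Zmat3.

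The spread over cells was widest for Cdkn1a. Its Fano factor, the variance of the thinned counts over their mean, was 1.19 in B and 1.10 in A, whereas it lay between 0.997 and 1.05 for the 8 other members for which it was computed. A value of 1 is what random sampling of an even population gives. At full depth 873 B cells held 1 Cdkn1a UMI, 128 held 2 and 37 held 3 or more, up to 8. Those 37 cells held 12.1% of the Cdkn1a UMIs of B cells.

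RNA that is free in the droplets can place UMIs in cells that do not express a gene, so the level in A was set against genes that are high in B. Among the 769 genes with at least 200 CPM in B, Krt7 had the lowest level in A relative to B, 3.93%, followed by Smpd3 at 5.06%, Lgals2 at 7.36%, Muc1 at 10.6% and Areg at 12.3%. The Cdkn1a level in A was 11.0% of that in B and the Phlda3 level 21.8%, both above the Krt7 value. The 96 A cells with a Cdkn1a UMI had 121 CPM of Krt7, 158 of Areg and 431 of Lgals2. The 7720 A cells without one had 52.4, 50.4 and 200.4 CPM. Transcripts that are high in B cells were thus also more abundant in the A cells with Cdkn1a, and their part in the A level was not tested.

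Other measures of the cells moved with the groups. The median mitochondrial share was 3.19% in A cells and 1.89% in B cells. A list of 10 immediate-early genes, which answer within minutes to growth factors, handling and stress, summed to 362 CPM in A and 874 CPM in B. Of its 8 genes with at least 10 CPM, 5 were at least 2-fold higher in B and none in A, beside 7.26% and 10.3% of all 8800 genes. One of the 5, Fos, met the minimum only through B cells. Their part in the Cdkn1a and Phlda3 ratios was not tested.

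The 2 genes were also compared within bands of mitochondrial share and depth. Under 2% mitochondrial UMIs, where the median share was 1.74% in A and 1.72% in B, the log2 ratio was 1.07 (0.31 to 1.94) for Cdkn1a and 1.57 (0.98 to 2.23) for Phlda3. For Ccng1 it was -0.25 (-0.71 to 0.25), against 0.41 over all cells. The other members in this band were at -0.36 for Trp53, -0.61 for Bax, -0.01 for Mdm2 and -0.01 for Zmat3. Bbc3 was at -1.16, and Trp53inp1 at -2.89 on 4 UMIs in A. That band held 5484 B cells but 222 A cells with 14 Cdkn1a UMIs, or 12.0 CPM. These A cells had 130 CPM of Krt7 and 143 of Areg, against 51.1 and 49.2 in the other A cells, whereas Lgals2 was at 188 and 204 CPM, Muc1 at 33.4 and 32.7, and Smpd3 at 18.0 and 13.4. From 2% to under 4%, with 6546 A and 3419 B cells, the ratio was 3.38 for Cdkn1a and 2.23 for Phlda3, but the median share within this band still differed, at 3.12% in A and 2.23% in B. From 4% up there were 33 B cells, with 1 Cdkn1a and 2 Phlda3 UMIs, too few for a ratio. By depth, the Cdkn1a ratio was 3.02 in cells of 2000 to under 4000 UMIs, 3.96 from 4000 to under 6000 and 2.67 from 6000 up. The Phlda3 ratio in the same bands was 2.72, 2.31 and 1.93.

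The wider p53 network was described with 34 further genes known as p53 targets and 22 genes for p53 regulators and relatives. Of the 34 targets, 25 had at least 10 CPM, and 3 of these were at least 2-fold higher in B, 8 were at least 2-fold higher in A and 14 were within 2-fold, beside 7.26% and 10.3% of all 8800 genes in those directions. Sfn, and each of the 8 except Ckap2, met the minimum of 10 CPM only through the group in which it is high. Their median log2 ratio was -0.14, beside -0.17 for all 8800 genes. Targets of p53 thus stood on both sides, with larger ratios toward A in some than the Cdkn1a ratio toward B.

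The 3 targets higher in B were Sfn, Plk2 and Perp. Sfn, which encodes 14-3-3 sigma, a protein that holds cells before mitosis and is abundant in squamous epithelium, was at 0.894 CPM in A and 18.4 in B (log2 ratio 4.37). Plk2, a stress-responsive polo-like kinase, was at 11.1 and 55.4 CPM (2.32). Perp, a desmosome component required for adhesion in stratified epithelium, was at 20.01 and 90.03 CPM (2.17).

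Higher in A were Ptchd4, Gdf15, Psrc1, Btg2, Ephx1, Ddb2, Ckap2 and Sesn1. Ptchd4, a patched-domain membrane protein, was at 168 CPM in A and 6.95 in B, a log2 ratio of -4.60. Gdf15, a secreted stress cytokine, was at 118 and 9.25 CPM, a log2 ratio of -3.68. The ratios of the others lay between -1.65 for Psrc1 and -1.01 for Sesn1, the latter a regulator of nutrient signalling. They include Btg2, an antiproliferative gene, at -1.55, the DNA damage sensor gene Ddb2 at -1.30, the epoxide hydrolase gene Ephx1 at -1.37 and the spindle gene Ckap2 at -1.05.

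Of the 22 regulators and relatives, 20 had at least 10 CPM, with a median log2 ratio of -0.23. One was higher in B: Ppp1r13l, which encodes iASPP, an inhibitor of p53, at 4.64 CPM in A and 15.2 in B (1.71), which met the minimum only through B. Higher in A were 3 genes, the damage kinase genes Chek2 (-1.47) and Atm (-1.10) and the p53 kinase gene Hipk2 (-1.13). Over all 8800 genes, 7.26% were higher in B and 10.3% in A. The other 16 were within 2-fold, among them Mdm4, a partner of Mdm2, at 38.4 CPM in A and a log2 ratio of -0.31. Cdkn2a, whose locus encodes the Mdm2 inhibitor Arf and the kinase inhibitor p16, was at 373 CPM in A and 484 in B. The 2 relatives of p53 were scarce, Trp63 at 1.99 CPM in A and 0.322 in B, and Trp73 with 1 UMI in B and 0 in A.

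**Figure D2:**
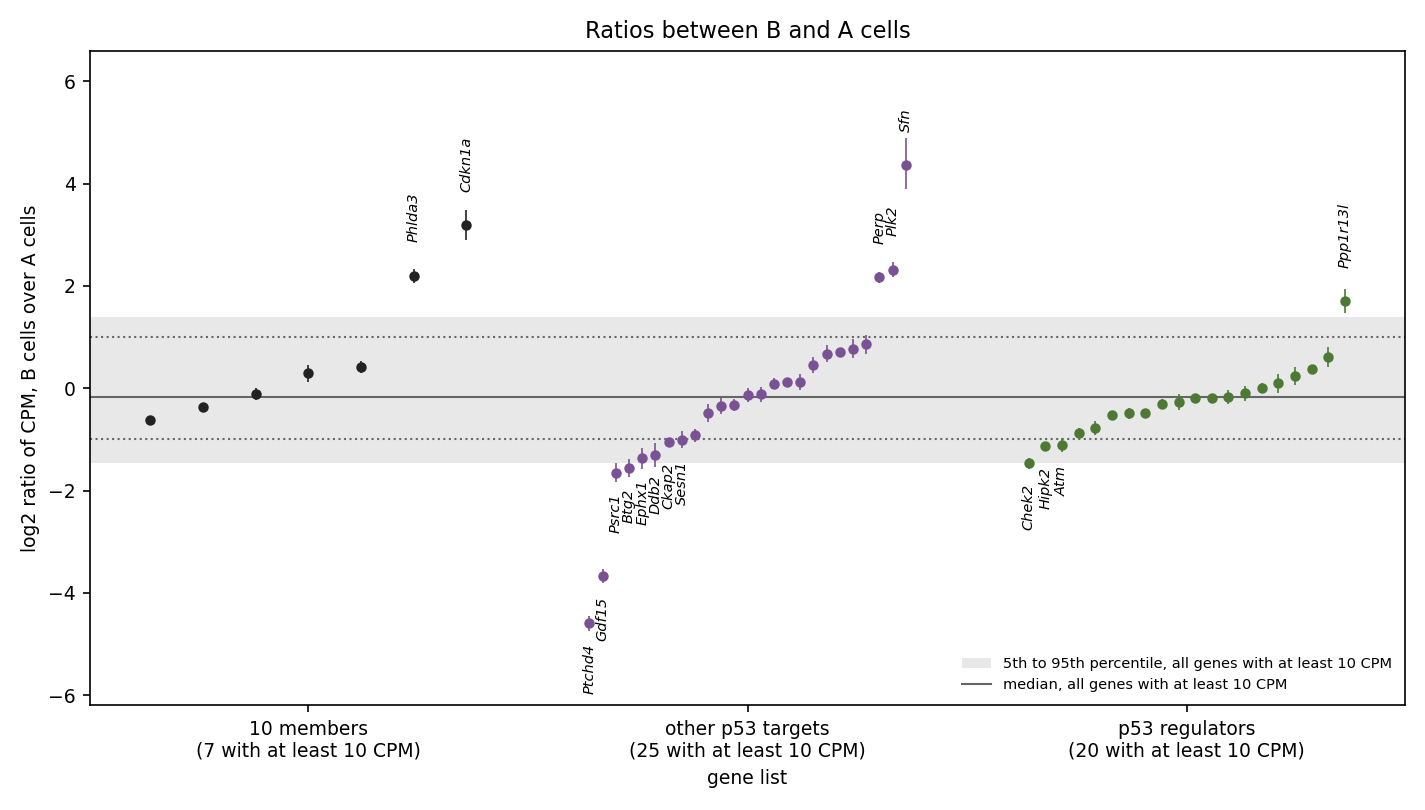
Log2 ratios of CPM between B and A cells for the members and the 2 further lists (genes with at least 10 CPM, ordered by ratio), with counting intervals at 95%. The grey band spans the 5th to 95th percentile of all 8800 genes (-1.47 to 1.39), the dotted lines mark 2-fold, and genes past 2-fold are named: 2 members lie above the band, and the other targets reach from -4.60 (Ptchd4) to 4.37 (Sfn).

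Within A and within B, the members were compared between cell states marked by other genes, each needing at least 2 UMIs of its markers and 3 times those of the other state. In A, 1295 cells were marked by S100g, Epcam and Tm4sf20, and 1539 by Tnc, Acta2 and H2ac8. Phlda3 was at 7.31 CPM in the first and 15.9 in the second, a log2 ratio of -1.12 (-1.63 to -0.64). It was the 1 member at least 2-fold higher in the second state, as were 1.04% of 8683 genes, and it met the minimum of 10 CPM only through that state. No member was 2-fold higher in the first, as 3.42% were. Trp53 (345 and 401 CPM) and Bax (256 and 297 CPM) were also lower in the first state, by less than 2-fold, with log2 ratios of -0.22 and -0.21.

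In B, 541 cells were marked by Krt14 and Sprr1a, genes of squamous and stratified epithelium, and 4714 by Areg, Btc and Cftr. Cdkn1a was at 42.3 CPM (35.7 to 49.8) in the first and 22.9 CPM (21.2 to 24.7) in the second, a log2 ratio of 0.88 (0.62 to 1.15). That is short of 2-fold, and no member passed 2-fold in either direction, beside 1.66% of 8239 genes higher in the first state and 0.316% in the second. The Phlda3 ratio was 0.20, with an interval (-0.005 to 0.40) that holds 0, as did those of Trp53, Mdm2, Ccng1, Zmat3 and Bbc3. Median depth was 6097 UMIs in the first state and 5530 in the second.

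Members were also compared along the cell cycle. Cells were ranked by UMIs of 10 mitosis genes and of 10 replication genes after thinning, and those in the top 10% of each, ties included, were set against those in the lowest 10% for both lists together. In B cells, Cdkn1a was at 10.1 CPM (7.88 to 12.7) in the 1055 cells highest in mitosis genes. It was at 31.0 CPM (26.4 to 36.2) in the 941 highest in replication genes and 30.3 CPM (25.6 to 35.6) in the 903 lowest in both. The log2 ratio of mitosis-high over cycle-low cells was -1.59 (-2.02 to -1.17), and that of replication-high over cycle-low cells was 0.03 (-0.30 to 0.36), with no member past 2-fold beside 2.71% of genes higher and 0.664% lower in replication-high cells. Cdkn1a was thus low only in the mitosis-high B cells of these 3 subsets, and it was the 1 member past 2-fold there, as were 1.14% of 8255 genes in that direction and 2.90% in the other.

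The same subsets were read in A cells. Cdkn1a was at 1.40 CPM (7 UMIs) in mitosis-high, 1.62 CPM (6 UMIs) in replication-high and 6.00 CPM (27 UMIs) in cycle-low cells. Bbc3 followed the same order, at 5.20, 5.41 and 11.6 CPM, with log2 ratios of -1.15 and -1.10 against the cycle-low cells. Of members with at least 10 CPM, it was the 1 past 2-fold in either contrast, as were 3.07% and 3.13% of genes in that direction, and it met that minimum only through the cycle-low cells. In B cells Bbc3 was at 4.76, 5.58 and 5.32 CPM. Whether the cycle subsets differ between A and B cells was not tested.

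Trp53 was somewhat higher in mitosis-high than in cycle-low cells of both groups, with log2 ratios of 0.26 in A and 0.27 in B, and Bax likewise at 0.27 and 0.19. In B, Ccng1 (-0.35, -0.65 to -0.04) and Zmat3 (-0.43, -0.85 to -0.004) were lower in mitosis-high cells by less than 2-fold, and in A their ratios of -0.37 and -0.37 had intervals that hold 0. Phlda3 was close between these subsets, with 0.01 in A and 0.19 in B and intervals that hold 0. Mitosis-high cells were deeper than cycle-low cells, with medians of 6448 and 4858 UMIs in B and 5386 and 4046 in A.

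**Figure D3:**
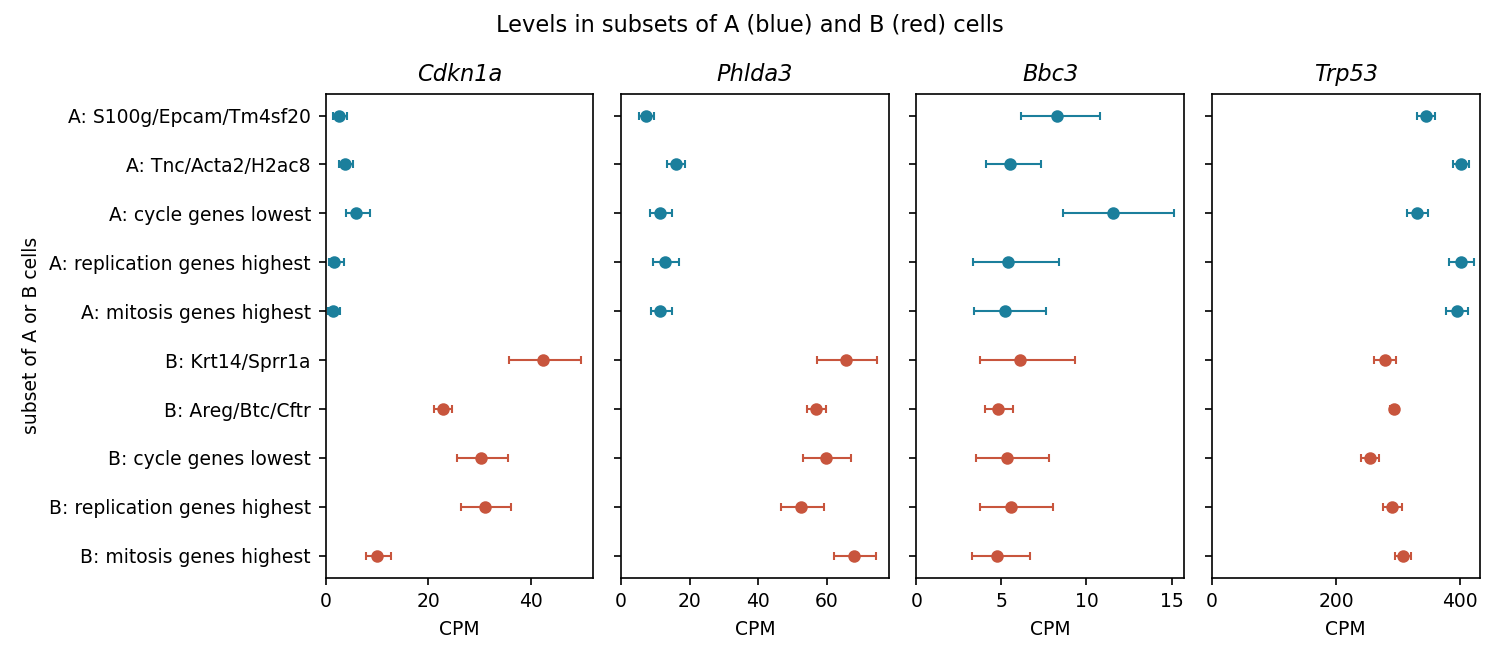
Levels (CPM, linear axes from 0, exact Poisson intervals at 95%) of 4 members in marker-defined states and cell-cycle subsets of A (blue) and B (red) cells. Cdkn1a in B lies between 10.1 CPM in mitosis-high and 42.3 CPM in Krt14/Sprr1a cells, above every A subset shown. The interval of mitosis-high B cells (7.88 to 12.7) overlaps that of cycle-low A cells (3.96 to 8.73). Bbc3 reaches 11.6 CPM in cycle-low A cells.

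Co-expression of the members was read from how often 2 of them had a UMI in the same cell at 3000 UMIs, against the number expected if they were independent. Of the 45 pairs, 21 in A cells and 25 in B cells had at least 10 cells expected. Observed over expected ranged from 0.693 to 1.25 in A (median 0.984) and from 0.888 to 1.08 in B (median 0.996), and all of these intervals hold 1. The intervals count only the cells with both genes and ignore the fixed number of cells with each. For common genes such as Trp53 and Bax they are therefore too wide, and holding 1 says little. Pearson correlations of CPM over cells for these pairs ran from -0.030 to 0.042 in A, the highest for Trp53 with Bax. In B they ran from -0.021 to 0.029. Trp53 and Bax were found together in 2170 B cells against 2173 expected. Trp53 and Mdm2 were found together in 363 against 369, and Cdkn1a and Phlda3 in 101 against 93.6. The members that were higher in B were thus not detectably found in the same B cells beyond independence, with an interval of 0.878 to 1.31 for Cdkn1a with Phlda3.

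With the minimum lowered to 4 expected cells, a choice made after seeing the data, 26 pairs in A and 30 in B could be read. The highest value was 1.76 for Cdkn1a with Bbc3 in B cells (14.2 cells against 8.08, interval 0.965 to 2.94). At full depth, within cells of like depth, it was 47 cells against 31.9, or 1.47 (1.08 to 1.96). It was 1.31 (0.757 to 2.10) at 5000 UMIs, 1.81 (0.713 to 3.76) at 2000 UMIs and 1.73 (0.942 to 2.90) with doublets removed. The correlation of CPM for this pair in B was 0.048. In A cells the highest was 1.66 for Cdkn1a with Mdm2 (0.681 to 3.37). At 3000 UMIs the intervals of all these pairs hold 1, and they are wide for the scarce genes, so weak co-expression could not be read from them.

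The number of members with a UMI per cell was also close to that of independent genes. It rests mostly on Trp53 and Bax, the members detected most often, so it says little about pairs of scarce members. In B cells, 14.98% had none of the 10, 39.7% had 1, 32.9% had 2, 10.6% had 3, 1.68% had 4 and 0.152% had 5 or more. The shares expected from independent genes were 15.1, 39.6, 32.7, 10.7, 1.70 and 0.150%. In A cells the share with 3 was 8.69% against 8.75% expected, and with 4 it was 0.782% against 0.823%.

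**Figure D4:**
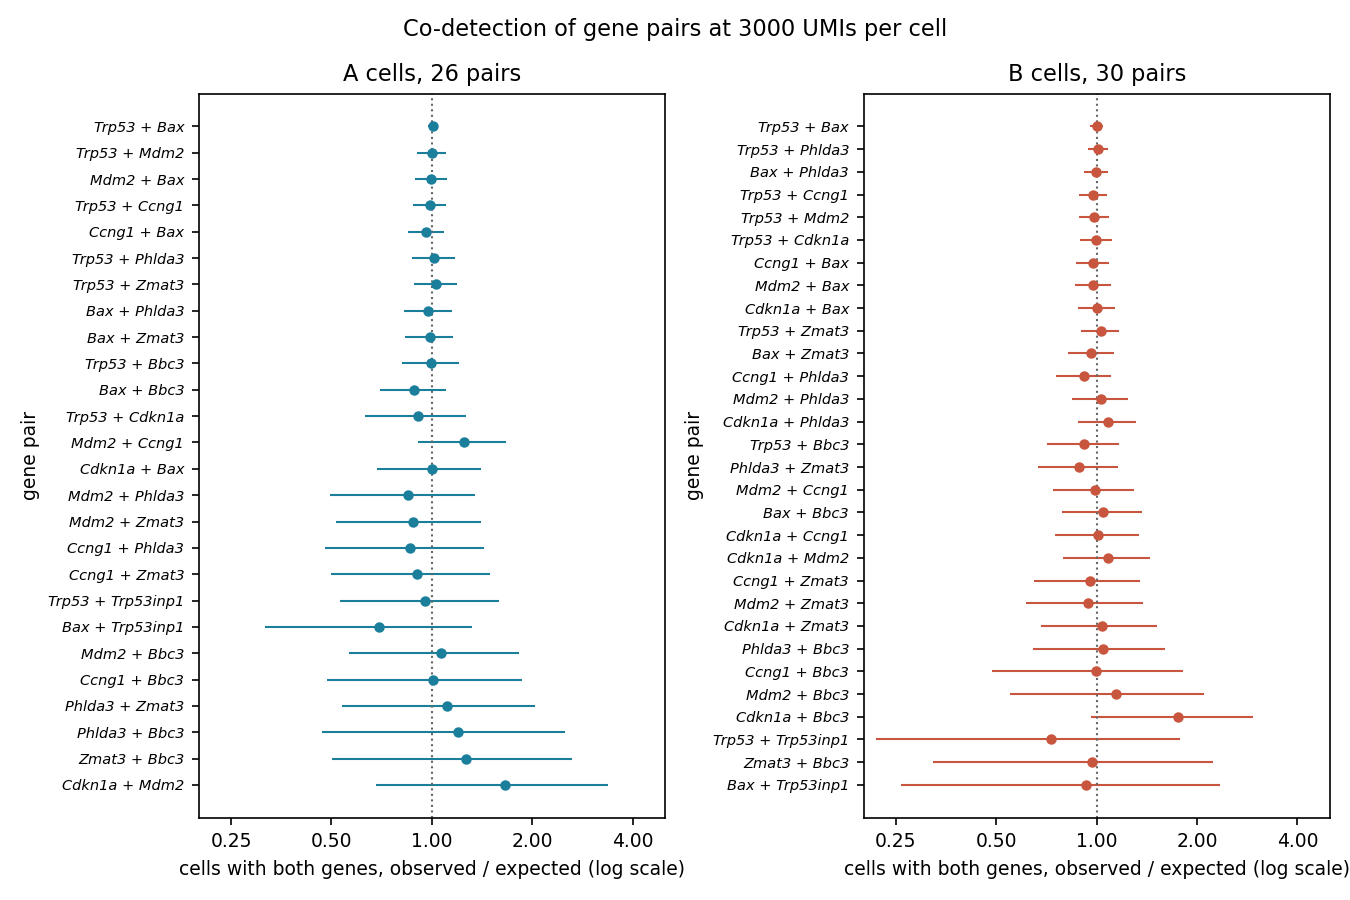
Cells with a UMI of both genes of a pair, observed over expected if independent, at 3000 UMIs per cell on a log axis, for the pairs with at least 4 expected cells (26 in A, 30 in B), with exact counting intervals at 95%. Pairs are ordered by expected cells, every interval crosses 1, and the farthest points are Cdkn1a with Bbc3 in B (1.76), Cdkn1a with Mdm2 in A (1.66) and Bax with Trp53inp1 in A (0.693). The intervals ignore the fixed number of cells with each gene and are too wide for common genes.

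B cells with a Cdkn1a UMI were then described against those without, since Cdkn1a varied most. At 3000 UMIs an expected 579.9 of 8827 B cells had one. The other members were close between both sets of cells. Log2 ratios of cells with over cells without were 0.04 for Trp53 (-0.09 to 0.17), 0.19 for Mdm2, 0.02 for Ccng1, 0.03 for Bax, 0.07 for Phlda3 and 0.07 for Zmat3, and each interval holds 0. Bbc3 was at 8.40 CPM with and 4.47 without, a log2 ratio of 0.91 (0.01 to 1.70), on 14.6 expected UMIs.

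Other genes were ranked by the same ratio. Among 3261 genes with at least 50 CPM in B cells, members left out, the 5 highest ratios were those of Sprr1a, H2bc4, Nupr1, Sqstm1 and Mmp13. Sprr1a, a cornified-envelope precursor that also marks one of the B states, was at 189 CPM with and 106 without (log2 ratio 0.84, 0.67 to 1.00). H2bc4 (histone H2B) and Nupr1 (a stress-induced nuclear protein) were both at 0.61, Sqstm1 (the autophagy receptor p62) at 0.51 and Mmp13 (a collagenase) at 0.47. The 5 lowest were the mitosis genes Cenpf (138 and 231 CPM, -0.74), Nusap1 (-0.66), Plk1 (-0.62), Prc1 (-0.57) and Kif20b (-0.55).

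The gene lists were read in the same cells. Over all 8058 genes with at least 10 CPM, 3841 had a ratio above 0, 178 (2.21%) had an interval above 0 and 135 (1.68%) had one below 0. The mitosis genes summed to 1305 CPM in B cells with a Cdkn1a UMI against 1778 without. All 10 had a ratio below 0, though the interval of Aurka holds 0. The replication genes summed to 1045 CPM against 950.5, and 3 of 10, Mcm4, Mcm5 and Cdc6, had intervals above 0, while the other 7 intervals hold 0. Of the 9 immediate-early genes with at least 10 CPM, 6 had intervals above 0, and those of Fos, Ier2 and Klf6 hold 0. The highest ratios were those of Atf3 (36.2 and 13.7 CPM, log2 ratio 1.40) and Egr1 (20.6 and 8.17 CPM, 1.33). Those 2 genes were the ones at least 2-fold higher, or 0.0248% of 8058 genes. At least 2-fold lower were also 2 genes (0.0248%), Kifc1, a mitotic kinesin gene (7.48 and 15.2 CPM), and Gm5886 (16.01 and 32.7 CPM), which was at 1618 CPM in A cells. Egr1 and Kifc1 met the minimum of 10 CPM only through the cells in which each is high. These 4 genes were picked with their values in view. The 19 other p53 targets with at least 10 CPM had a median of 0.07, beside -0.01 for all 8058 genes. The intervals of 2 of them lie above 0, those of Sfn (27.5 and 16.8 CPM, 0.71) and Perp (108.5 and 90.1 CPM, 0.27), and the others hold 0. Cells with and without Cdkn1a had median depths of 5674 and 5439 UMIs and mitochondrial shares of 1.887% and 1.894%.

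**Figure D5:**
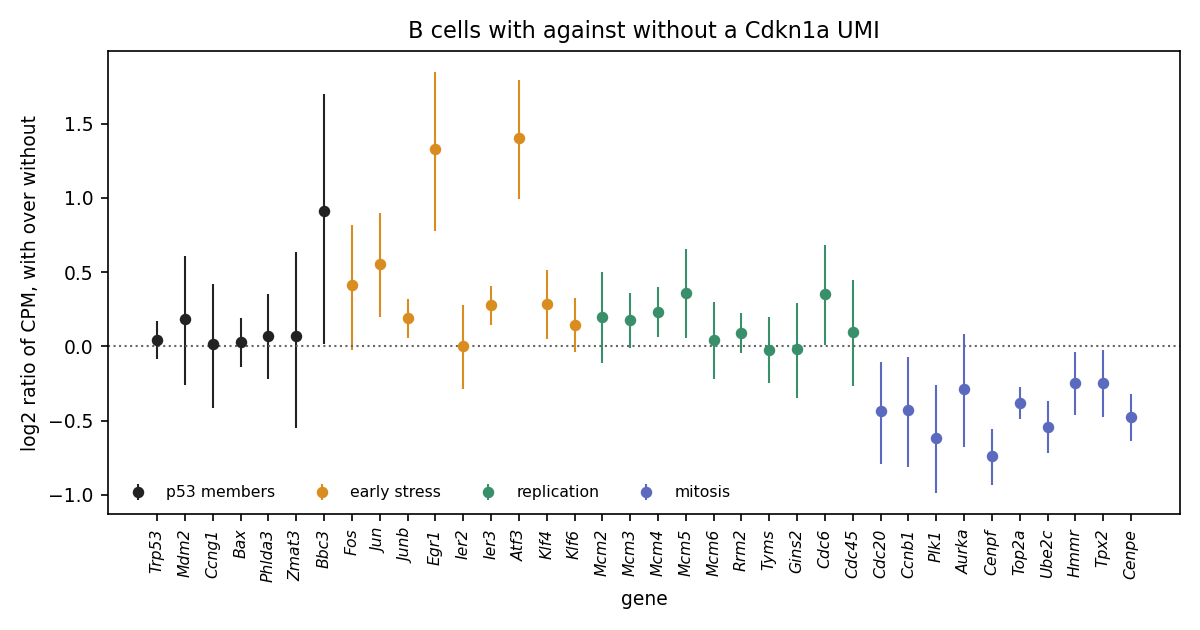
Log2 ratios of CPM between B cells with and without a Cdkn1a UMI (expectation at 3000 UMIs per cell, counting intervals at 95%), for the members with enough UMIs and the immediate-early (early stress), replication and mitosis genes. The members other than Bbc3 lie near 0, Atf3 (1.40) and Egr1 (1.33) stand highest, and all 10 mitosis genes lie below 0.

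A cells with a Cdkn1a UMI, an expected 56.7 of 7406, showed the same directions for 2 of these lists. Mitosis genes summed to 1369 CPM with and 2185 without, a log2 ratio of -0.67 (-0.87 to -0.49). Immediate-early genes summed to 660 CPM against 358, a log2 ratio of 0.88 (0.60 to 1.15). Replication genes were at 971 and 1085 CPM, with a log2 ratio of -0.16 and an interval (-0.39 to 0.06) that holds 0. These A cells also held more of the B transcripts given above, and the part of that in their profile was not tested.

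For comparison, B cells with a Phlda3 UMI, an expected 1424 of 8827, differed from those without it by little on the same lists. Immediate-early genes summed to 874 and 870 CPM, mitosis genes to 1796 and 1738 CPM, and replication genes to 929 and 962 CPM. The Cdkn1a ratio between them was 0.16 (-0.14 to 0.45) and the Trp53 ratio 0.04 (-0.04 to 0.13). Phlda3 counts in B had a Fano factor of 1.02, near that of random sampling, so this split could show little difference whatever the cells held. The difference between the Cdkn1a and the Phlda3 split was not tested.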

How the data were processed

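Single-cell expression was measured in 1 pooled droplet library. The deposited matrix holds counts of UMIs per gene and barcode, written by Cell Ranger 8.0.1 per the file headers and not normalized. Per the submitters' processing notes the genome build was GRCm39. The annotation and any filter on barcodes are not given in the sources used here. Chromosome names came from GENCODE M21 and promoter windows from RefSeq on GRCm38.p6, matched by gene, and no coordinate was converted.

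UMIs were summed over the cells of a group and divided by the group's total to give CPM, with exact Poisson intervals. Ratios have exact conditional binomial intervals and shares have Clopper-Pearson intervals, all at 95%. No ratio of a member is given where either side has 3 or fewer UMIs. Where cells were compared at equal depth, each was reduced to 3000 UMIs and the expectation over all random draws was computed, so expected counts need not be whole. Their intervals use the same formulas, which count expected UMIs as if observed. Ranking by cycle genes used 1 seeded draw. No p-value was computed, since cells of 1 library are not replicates.

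Doublets were kept. Scrublet (run through scanpy 1.11.5 with the expected doublet rate set to 0.08) marked 778 of 21361 cells (3.64%): 1.87% of A cells, 2.33% of B cells and 9.20% of cells in neither group. Their removal was an alternative, beside other cell filters, a stricter group rule, other totals, averaging and depths, and other count limits. The genes named are all members, the genes of 2 lists that passed 2-fold and 10 CPM, and the 5 highest and 5 lowest ratios by Cdkn1a detection among genes with at least 50 CPM. Other genes named, and the free-RNA and mitochondrial bands, were chosen after values were seen. The members and lists were chosen with earlier results of these data known. The steps were tested on simulated data. Python 3.11.15 with numpy 2.4.6, scipy 1.17.1 and pandas 2.3.3 was used.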

Additional observations from a re-analysis of the deposited data

Results flagged for a closer look

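The cells that met neither group rule entered none of the comparisons above, and both members that differed between A and B were detected in them. Cdkn1a was at 13.45 CPM (12.0 to 15.1, 303 UMIs) and Phlda3 at 31.93 CPM (29.6 to 34.4, 719 UMIs) in these 4609 cells, between their levels in A and in B. Of the 4609 cells, 3966 had fewer than 2 UMIs of both gene sets. The other 643 had 2 or more UMIs of a set without the 3-fold excess, and a median of 7911 UMIs.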

How the results depend on the processing

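Over 7 other settings and 9 members with a ratio, none of the 63 log2 ratios changed sign, and 61 moved by less than their counting interval. The Cdkn1a ratio moved to 3.57 and the Phlda3 ratio to 2.39 under the stricter group rule. In bands chosen after seeing the data, the Cdkn1a ratio moved to 1.07 under 2% mitochondrial UMIs, 3.96 at 4000 to under 6000 UMIs and 2.67 from 6000 UMIs. The Phlda3 ratio moved to 1.57 under 2% mitochondrial UMIs, 2.72 at 2000 to under 4000 UMIs and 1.93 from 6000 UMIs. Under 2% mitochondrial UMIs the Ccng1 and Zmat3 ratios were -0.25 and -0.01, with intervals that hold 0. At a minimum of 50 CPM, 1 of 3 members (Phlda3) was higher in B, as were 6.68% of 3908 genes. Phlda3 met that minimum only through B cells. Higher in A was 1 member with no minimum (Trp53inp1), as were 21.7% of 22293 genes, and 1 at 1.5-fold (Bax), as were 23.7% of 8800. The share of B cells with a Cdkn1a UMI was 11.6% unthinned, 4.51% at 2000 UMIs and 9.58% at 5000. The median ratio of all genes with at least 10 CPM lay between -0.15 and -0.19 in the 7 other settings, and was -0.13 under 2% mitochondrial UMIs. With 1 library, leaving out a replicate was not possible, and the spread between cultures of A or B cells is unknown. No paired analysis was possible because there is 1 library and no replicate. Depth limits the scarce members: Eda2r and Trp53inp1 gave too few UMIs for most subsets.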
